A study of Mus musculus with 16 samples.

Results

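The genes that build and break down glycogen were followed in the interscapular brown fat of mice, the depot between the shoulder blades that burns fuel to make heat. They were 9 of the 38924 genes in the count table, taken by matching Ensembl identifiers to symbols. These were the glycogen synthases Gys1 and Gys2, the primer Gyg, the branching enzyme Gbe1, the UDP-glucose maker Ugp2, the phosphorylases Pygl and Pygb, and the phosphatase subunits Ppp1r3b and Ppp1r3c. All 9 were found and all 9 passed the filter on low counts, with 369 to 34306 raw counts in a library.

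The study asked how brown fat adapts to ambient temperature in mice that lack Akt2 there. All mice were C57BL/6J, either wildtype littermates (WT) or animals whose Akt2 was deleted in brown fat with UCP1-CreER (KO). They lived from 9 to 13 weeks of age, for 4 weeks, at 30 °C, which the labels call thermoneutral, or at 22 °C. Each of the 4 groups (WT at 30 °C, KO at 30 °C, WT at 22 °C, KO at 22 °C) held 4 bulk RNA-seq libraries. UCP1-CreER acts in Ucp1-expressing cells, so other cells of the depot keep Akt2. The labels number the libraries within a group and do not state that each is a different animal. A p-value here therefore sets a difference against the spread among libraries, which may be technical.

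Glycogen is a branched polymer in which cells store glucose. UGP2 makes the activated sugar UDP-glucose, glycogenin (GYG) starts a chain, glycogen synthase lengthens it and GBE1 adds branches, while glycogen phosphorylase releases glucose phosphate from the chain ends. Protein phosphatase 1, brought to the particle by targeting subunits of the PPP1R3 family, switches synthase on and phosphorylase off. AKT2 acts downstream of the insulin receptor and restrains GSK3, a kinase that switches synthase off.

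Total counts per library ran from 12751528 to 23866743. No pair of libraries within a group agreed within sampling noise, with counts scaled by library totals alone. Akt2 checked the labels: every KO library (56.2 to 89.3 CPM, counts scaled to library size) was below every WT library (192 to 261 CPM). The brown adipocyte markers were present in all 16 libraries, with Ucp1 at 1411 to 8749 CPM. Skeletal muscle markers held 0.00372% to 0.690% of counts. They exceeded 0.1% in 4 libraries: WT replicate 2 at 30 °C (0.282%), KO replicates 1 and 2 at 30 °C (0.129% and 0.431%) and KO replicate 1 at 22 °C (0.690%). Replicate 4 of WT at 30 °C lay just under that share, at 0.0997%. The log2 level of the clock gene Dbp minus that of the clock gene Arntl, which moves with time of day, was -3.46 to -2.21 in KO at 22 °C. The other groups lay at -0.80 to 1.78 (WT at 22 °C), -1.37 to 0.26 (KO at 30 °C) and -0.56 to 0.40 (WT at 30 °C). In tissue RNA, fewer cells of a type and less RNA per cell cannot be told apart.

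In WT brown fat, most of the glycogen genes were higher at 22 °C than at 30 °C, and the largest change was in the phosphorylase Pygl, at 358 ± 58.3 CPM in the warm and 1586 ± 113 CPM in the cool (SD, n = 4). Of the 9 genes 8 passed: 7 rose (Gys1, Gys2, Gyg, Gbe1, Ugp2, Pygl and Ppp1r3b), 1 fell (Pygb), and Ppp1r3c did not pass. A gene passed at a Benjamini-Hochberg adjusted p under 0.05 over all 14103 genes tested, in edgeR's quasi-likelihood test on 16 libraries. Over all genes tested in that comparison 38.3% passed, 20.5% up and 17.8% down, so the members rose far more often than genes in general. The members were chosen with earlier results of these data known, so this contrast and those below describe them and are not a test. The split over all genes was 2897 up and 2509 down, and 2196 up and 3382 down with upper-quartile factors, under which the same members passed. Their median log2 fold change was 1.10, beside -0.03 over all genes tested. The same 8 members had libraries that did not overlap between the temperatures, beside 18.4% (higher) and 16.9% (lower) of all genes.

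In KO fewer members passed. Between 30 °C and 22 °C Gys2 rose and 2 members fell (Pygb and Ppp1r3b), while 26.7% of all genes passed, 13.8% up and 13.0% down, so these counts were near the background. That split was 1943 up and 1829 down, and 1179 up and 2540 down with upper-quartile factors. The libraries of these 3 did not overlap between temperatures, nor did those of 17.7% (higher) and 15.0% (lower) of all genes. The median member changed by 0.09 on the log2 scale, beside 0.02 over all genes. KO was lower than WT at 22 °C for 4 of 9 members, Pygl, Gbe1, Ugp2 and Ppp1r3b, and higher for 0 of 9. Over all genes 17.6% passed, 10.1% lower and 7.52% higher in KO, so the members were lower more often than genes in general. Those 4 did not overlap between genotypes, beside 9.77% (lower) and 7.70% (higher) of all genes. The median log2 fold change was -0.28 over the members and 0.02 over all genes. At 30 °C 0 of 9 members differed between KO and WT by edgeR (0.0425% of all genes did, 0.0284% higher and 0.0142% lower in KO), and 0 did by DESeq2 or limma-voom. An unadjusted edgeR p under 0.05 was found there for 2 members, Gys2 and Pygb. The other 7 lay between -0.02 (Gbe1) and 0.34 (Ppp1r3c) on the log2 scale, each with an adjusted p of 0.998. Libraries of the genotypes did not overlap for 1 member, Pygb, lower in KO, beside 2.57% (lower) and 3.37% (higher) of all genes.

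The interaction, which is the KO effect at 22 °C minus that at 30 °C, tested whether the genotype changed the temperature response. The same 4 members, Pygl, Gbe1, Ugp2 and Ppp1r3b, passed it with negative values, and 0 passed with positive ones. Of all genes 3.14% passed, 2.39% with negative and 0.752% with positive values, so 4 of 9 was well above the background. That contrast too describes members chosen with earlier results known. The median was -0.80 over the members and 0.01 over all genes. These comparisons share groups (WT at 22 °C enters 3 of the 5), so their values for a gene are not independent of each other. Together the 9 members held 0.167% to 0.205% of counts in WT at 30 °C and 0.320% to 0.371% in WT at 22 °C. In KO they held 0.173% to 0.217% at 30 °C and 0.160% to 0.184% at 22 °C.

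**Figure D1:**
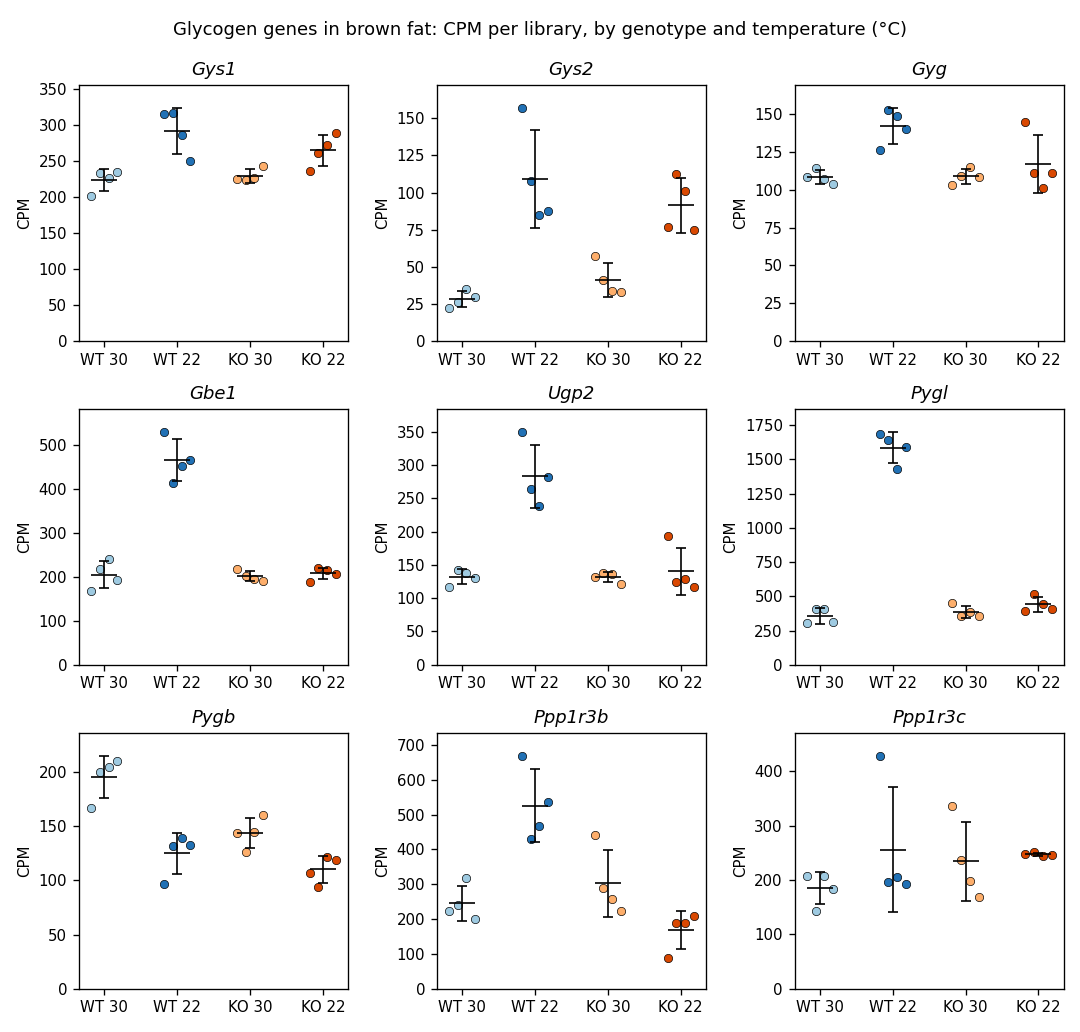
Level of each glycogen gene in CPM (vertical axes start at 0) in every library of the 4 groups, named by genotype and temperature in °C. Points are libraries in replicate order and bars are mean ± SD (n = 4). Pygl, Gbe1, Ugp2 and Ppp1r3b stand highest in WT at 22 °C, with every library of that group above all 12 others except that 1 Ppp1r3b library at 429 CPM lies below the top KO library at 30 °C, at 442 CPM.

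The sequences before the start of Pygl, Gbe1 and Ugp2 are shown because these genes moved together, rising in cooled WT and passing the interaction. Promoters came from RefSeq on GRCm38.p6, with 8 entries that matched 7 of the 9 genes. Gys2 and Ppp1r3b had none. The 250 bases upstream are given 5′ to 3′ on the strand of the gene for Pygl (chr12:70227684-70227933, minus strand), Gbe1 (chr16:70313699-70313948, plus strand) and Ugp2 (chr11:21371268-21371517, minus strand). Ppp1r3c (chr19:36736605-36736854, minus strand) is shown beside them as the member that passed in none of the comparisons. Capitals mark an E-box, CACGTG, or a CCAAT box, read on either strand, so that a CCAAT box on the other strand reads ATTGG.
Pygl: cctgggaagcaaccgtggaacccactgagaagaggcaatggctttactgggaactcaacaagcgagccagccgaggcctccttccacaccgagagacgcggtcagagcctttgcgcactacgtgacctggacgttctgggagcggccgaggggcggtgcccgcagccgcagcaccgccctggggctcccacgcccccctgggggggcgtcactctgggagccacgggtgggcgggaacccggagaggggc
Gbe1: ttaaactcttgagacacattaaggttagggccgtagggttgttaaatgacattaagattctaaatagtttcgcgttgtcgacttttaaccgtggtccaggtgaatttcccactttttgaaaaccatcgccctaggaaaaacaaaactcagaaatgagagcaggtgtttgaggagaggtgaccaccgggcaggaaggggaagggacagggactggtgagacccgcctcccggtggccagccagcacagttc
Ugp2: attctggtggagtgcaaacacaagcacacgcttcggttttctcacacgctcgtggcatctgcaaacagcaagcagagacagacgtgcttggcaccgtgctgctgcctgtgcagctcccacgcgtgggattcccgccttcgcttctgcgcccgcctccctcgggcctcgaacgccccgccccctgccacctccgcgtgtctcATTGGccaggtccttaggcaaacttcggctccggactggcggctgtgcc
Ppp1r3c: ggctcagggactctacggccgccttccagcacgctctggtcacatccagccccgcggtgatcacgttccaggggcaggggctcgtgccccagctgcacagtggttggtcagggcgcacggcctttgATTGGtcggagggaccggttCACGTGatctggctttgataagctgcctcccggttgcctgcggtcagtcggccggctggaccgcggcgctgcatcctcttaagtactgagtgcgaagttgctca

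Each window searched ran from 250 bases before to 50 bases after the start, 300 bases in all. The letters searched, on both strands, were the E-box CACGTG (7.15% of 32851 promoters held it), the cAMP response element TGACGTCA (1.79%), the forkhead letters GTAAACA (3.65%) and CCAAT (37.4%). No 2 of the matches overlapped. The windows of Pygl, Gbe1 and Pygb and the second Ugp2 window held none of these letters. The Pygl window lies inside the gene as annotated by GENCODE (70190811 to 70231488, minus strand), because RefSeq puts its start at 70227683. Letters before the GENCODE start of Pygl were not searched. The first Ugp2 window held CCAAT on the reverse strand 49 bases before the start and again 30 bases after it. Ppp1r3c held an E-box 104 bases before the start and CCAAT 124 bases before and 35 bases after it. Gys1 held CCAAT 4 times, 216, 181, 96 and 55 bases before its start, and Gyg held an E-box 8 bases after its start. A match is a description of letters and not a site of binding, and the 3 printed promoters of genes that moved together shared none of the motifs searched.

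Sugar activation and chain priming differed in how far they moved. Ugp2 (ENSMUSG00000001891, chromosome 11, 21321138 to 21371201, minus strand) makes UDP-glucose. It stood at 117, 143, 138 and 130.0 CPM in replicates 1 to 4 of WT at 30 °C and at 349, 264, 239 and 282 CPM in those of WT at 22 °C. KO held 132, 138, 136 and 122 CPM at 30 °C and 193, 124, 128 and 117 CPM at 22 °C. All 4 WT libraries at 22 °C were above the 12 others, which overlapped each other. Replicate 1 of KO at 22 °C, the library with the largest muscle share, was the highest of those 12. The log2 fold change with cooling was 1.10 (SE 0.15, adjusted p = 3.99e-05) in WT and 0.09 (SE 0.15, adjusted p = 0.671) in KO. KO against WT at 22 °C gave -1.01 (SE 0.15, adjusted p = 0.000389) and the interaction -1.01 (SE 0.21, adjusted p = 0.0191).

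Gyg (ENSMUSG00000019528, chromosome 3, 20122084 to 20155317, minus strand) encodes glycogenin, the protein on which a new chain starts. Its WT values were 109, 115, 107 and 104 CPM at 30 °C and 126, 153, 149 and 140.3 CPM at 22 °C. In the knockout they were 103, 109.5, 115 and 108 CPM at 30 °C and 145, 111, 101 and 112 CPM at 22 °C. The WT libraries separated by temperature with a small gap, while those of KO overlapped. Cooling gave 0.39 (SE 0.10, adjusted p = 0.00556) in WT and 0.10 (SE 0.10, adjusted p = 0.465) in KO. KO against WT at 22 °C was -0.28 (SE 0.10, adjusted p = 0.0596), just short of the threshold, and the interaction was -0.29 (SE 0.14, adjusted p = 0.25). The genotype difference passed without replicate 1 of KO at 22 °C, whose 145 CPM was the highest Gyg value of that group (-0.41, adjusted p = 0.00496), and without the 4 libraries over 0.1% muscle (-0.41, adjusted p = 0.0134). In all it passed in 12 of 26 alternatives, among them relative-log-expression factors (adjusted p = 0.0487), upper-quartile factors (adjusted p = 0.0408), DESeq2 (adjusted p = 0.0252) and limma-voom (adjusted p = 0.00652). The interaction passed with limma-voom (adjusted p = 0.0337).

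The 2 synthase genes responded unequally. Gys1 (ENSMUSG00000003865, chromosome 7, 45434844 to 45456619, plus strand), the synthase gene of muscle and most tissues, held 202, 233, 227 and 234 CPM in WT at 30 °C and 315, 316, 286 and 249 CPM in WT at 22 °C. KO libraries held 224, 223, 226 and 243 CPM at 30 °C and 236, 261, 272 and 288 CPM at 22 °C. All groups lay within a narrow range, and WT at 22 °C was above WT at 30 °C without overlap. The change with cooling was 0.38 (SE 0.09, adjusted p = 0.00291) in WT and 0.21 (SE 0.09, adjusted p = 0.0895) in KO, and the interaction was -0.17 (SE 0.12, adjusted p = 0.433). In KO it passed with limma-voom (0.25, adjusted p = 0.00455) and with the clock difference as a covariate (0.40, adjusted p = 0.0284). Gys1 shares 310 exon bases with Ruvbl2 on the opposite strand. Gys1 in KO against WT at 22 °C gave -0.14 (SE 0.09, adjusted p = 0.264). Ruvbl2 rose by 0.37 on the log2 scale in cooled WT and was lower in KO at 22 °C (-0.52), and with the strand setting unknown reads over the shared bases cannot be told apart.

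Gys2 (ENSMUSG00000030244, chromosome 6, 142422613 to 142473109, minus strand) is the synthase gene best known from liver. Its 4 WT libraries at 30 °C were at 21.9, 26.4, 35.2 and 29.4 CPM, and those at 22 °C at 157, 108, 85.0 and 87.8 CPM. KO libraries stood at 57.0, 41.4, 33.5 and 32.8 CPM at 30 °C and 77.0, 112, 101 and 75.1 CPM at 22 °C. Both genotypes were higher in the cool without overlap, and the genotypes overlapped at each temperature. Gys2 rose by 1.95 (SE 0.23, adjusted p = 1.33e-05) in WT and by 1.15 (SE 0.22, adjusted p = 0.00171) in KO, the only member to rise in both. The interaction was -0.80 (SE 0.31, adjusted p = 0.162) and KO against WT at 22 °C -0.26 (SE 0.22, adjusted p = 0.426), neither of which passed. At 30 °C KO against WT was 0.54 (SE 0.22), with an unadjusted p of 0.0278 and an adjusted p of 0.998. Summed over 5 liver markers, the share of counts was 0.0044% to 0.0140% in WT at 30 °C, 0.00016% to 0.0198% in WT at 22 °C, 5e-05% to 0.0317% in KO at 30 °C and 3e-05% to 0.00223% in KO at 22 °C. Alb was counted in all 16 libraries, while Apoa1, Ttr, Serpina1a and Cps1 were at 0 in 1, 3, 2 and 4 of them. The part of liver transcripts in the Gys2 values was not tested.

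Branching followed the pattern of sugar activation. Gbe1 (ENSMUSG00000022707, chromosome 16, 70313949 to 70569716, plus strand) encodes the glycogen branching enzyme. Its level was 169, 218, 239.7 and 194 CPM in WT at 30 °C and 529.5, 414, 452 and 467 CPM in WT at 22 °C. The knockout libraries held 217, 203, 196 and 192 CPM at 30 °C and 189, 219, 216 and 208 CPM at 22 °C. WT at 22 °C stood apart, its lowest library at 414 CPM and the highest of the 12 others at 239.7 CPM, and the other 3 groups overlapped. Cooling gave 1.18 (SE 0.10, adjusted p = 9.59e-07) in WT and 0.04 (SE 0.10, adjusted p = 0.786) in KO. At 22 °C KO against WT gave -1.16 (SE 0.10, adjusted p = 4.42e-06). The genotypes at 30 °C gave -0.02 (SE 0.10, adjusted p = 0.998), and the interaction was -1.14 (SE 0.15, adjusted p = 0.000647).

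Among the phosphorylases Pygl had the largest change of the 9 members in cooled WT. Pygl (ENSMUSG00000021069, chromosome 12, 70190811 to 70231488, minus strand) encodes the phosphorylase known from liver, which releases glucose phosphate from glycogen. WT libraries stood at 303, 411, 405 and 312 CPM at 30 °C and 1688, 1639, 1428 and 1588 CPM at 22 °C. KO libraries stood at 449, 358, 386 and 357 CPM at 30 °C and 393, 516, 446 and 411 CPM at 22 °C. The lowest WT value at 22 °C was above the highest of the other 12 libraries by a wide margin, and KO at 22 °C overlapped both groups at 30 °C. Pygl rose by 2.15 (SE 0.12, adjusted p = 2.22e-08) in WT, while KO gave 0.19 (SE 0.12, adjusted p = 0.258). At 22 °C KO against WT gave -1.85 (SE 0.12, adjusted p = 2.66e-07), and the interaction was -1.96 (SE 0.17, adjusted p = 3.45e-05). Pygl made up 21.2% of the summed CPM of the 9 members in WT at 30 °C and 42.1% in WT at 22 °C, but 21.8% and 24.6% in KO.

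Pygb (ENSMUSG00000033059, chromosome 2, 150786735 to 150831758, plus strand), the phosphorylase gene known from brain, moved the other way. Its WT libraries held 168, 200.4, 205 and 210.4 CPM at 30 °C and 97.0, 132, 139 and 133 CPM at 22 °C. KO values were 144, 126, 145 and 160.5 CPM at 30 °C and 107, 93.7, 121 and 119 CPM at 22 °C. WT at 30 °C was above all other groups without overlap, and KO at 22 °C was lowest on average but overlapped WT at 22 °C. Pygb fell by 0.65 (SE 0.12, adjusted p = 0.000646) on the log2 scale in cooled WT and by 0.38 (SE 0.12, adjusted p = 0.0278) in cooled KO. The call in KO was lost without any 1 of KO replicates 1, 3 or 4 at 30 °C or replicate 2 at 22 °C (adjusted p 0.0571, 0.0603, 0.0775 and 0.0818), and without the 4 libraries over 0.1% muscle (-0.46, adjusted p = 0.0783) or with the clock difference as a covariate (-0.45, adjusted p = 0.111). At 30 °C KO against WT was -0.44 (SE 0.12), with libraries that did not overlap, an unadjusted p of 0.00203 and an adjusted p of 0.746. The genotypes at 22 °C gave -0.18 (SE 0.12, adjusted p = 0.296), and the interaction was 0.26 (SE 0.17, adjusted p = 0.39).

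The targeting subunits, which bring protein phosphatase 1 to glycogen, differed from each other. Ppp1r3b (ENSMUSG00000046794, chromosome 8, 35375739 to 35388139, plus strand) encodes the subunit known from liver. In WT it held 223, 239.8, 317 and 199.6 CPM at 30 °C and 669, 429, 468 and 535 CPM at 22 °C. In KO it held 442, 289, 258 and 223 CPM at 30 °C and 87.5, 189.7, 188 and 207 CPM at 22 °C. WT at 22 °C was above WT at 30 °C and KO at 22 °C below KO at 30 °C, each without overlap. Cooling gave 1.10 (SE 0.26, adjusted p = 0.00342) in WT and -0.85 (SE 0.26, adjusted p = 0.0235) in KO. KO against WT at 22 °C was -1.64 (SE 0.26, adjusted p = 0.00084), and the interaction -1.95 (SE 0.36, adjusted p = 0.0105). The fall in KO rested on few libraries: it was -0.61 (adjusted p = 0.0929) without replicate 1 at 30 °C and -0.30 (adjusted p = 0.327) without the 4 libraries over 0.1% muscle. With the clock difference as a covariate it was -0.45 (adjusted p = 0.455). Without the muscle-bearing 4 the interaction was -1.39 (adjusted p = 0.0332). Replicate 1 of KO at 22 °C, the lowest Ppp1r3b library, held the largest muscle share.

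Ppp1r3c (ENSMUSG00000067279, chromosome 19, 36731731 to 36736653, minus strand) encodes the targeting subunit PTG. WT libraries held 207, 144, 208 and 183 CPM at 30 °C and 428, 197, 204 and 193 CPM at 22 °C. KO libraries held 335, 236, 198 and 168 CPM at 30 °C and 248, 251, 243 and 245 CPM at 22 °C. The groups overlapped in each of the 4 pairwise comparisons. Replicate 1 of WT at 22 °C stood far above the rest of its group, and the KO libraries at 22 °C lay close together. None of the 5 comparisons passed, with 0.47 (SE 0.25, adjusted p = 0.149) in cooled WT, 0.08 (SE 0.25, adjusted p = 0.848) in cooled KO and -0.05 (SE 0.24, adjusted p = 0.904) for KO against WT at 22 °C. The interaction was -0.39 (SE 0.35, adjusted p = 0.538). Without replicate 1 of WT at 22 °C the change in cooled WT was 0.09.

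The Dbp minus Arntl difference was lower in every KO library at 22 °C than in every other library. With that difference as a covariate, Pygl and Gbe1 stayed lower in KO at 22 °C (-1.54, adjusted p = 0.00549, and -1.04, adjusted p = 0.0369). Ugp2 (-1.22, adjusted p = 0.103) and Ppp1r3b (-1.04, adjusted p = 0.473) no longer passed. Of the 4 interactions only Pygl still passed (-1.70, adjusted p = 0.00507). The values of the other 3 stayed negative, at -1.04 for Gbe1 (adjusted p = 0.0823), -1.18 for Ugp2 (adjusted p = 0.230) and -1.41 for Ppp1r3b (adjusted p = 0.480). Since that difference marks out KO at 22 °C, this fit cannot tell the clock from the knockout there, whether a call was kept or lost. The part of the clock was not tested. Endothelial markers held 0.110% to 0.122% of counts in WT at 30 °C, 0.109% to 0.123% in KO at 30 °C, 0.0573% to 0.0759% in WT at 22 °C and 0.0724% to 0.0984% in KO at 22 °C. Macrophage markers held 0.00843% to 0.0117%, 0.00849% to 0.00997%, 0.00337% to 0.00708% and 0.00405% to 0.0051% in the same order, and none of the 6 was at 0 in any library. Both lists held less in the cool. Of the 6 endothelial markers 4 fell in cooled WT and 2 in cooled KO, and 4 were higher in KO than in WT at 22 °C. Of the 6 macrophage markers 5 fell with cooling in each genotype and 0 differed between genotypes. Fibroblast markers fell for 3 of 5 in cooled WT and 1 of 5 in cooled KO, 2 of 5 were higher in KO at 22 °C, and 2 of 5 passed the interaction with positive values. Brown adipocyte markers rose for 7 of 8 in cooled WT and 5 of 8 in cooled KO, and 1 of 8 was higher in KO at 22 °C. Of 6 markers of all adipocytes, 4 rose in cooled WT and 2 in cooled KO. At 22 °C 2 of these 6 were lower in KO and 1 was higher, and 1 passed the interaction with a negative value. The part of these cell types in the temperature and genotype values was not tested.

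**Figure D2:**
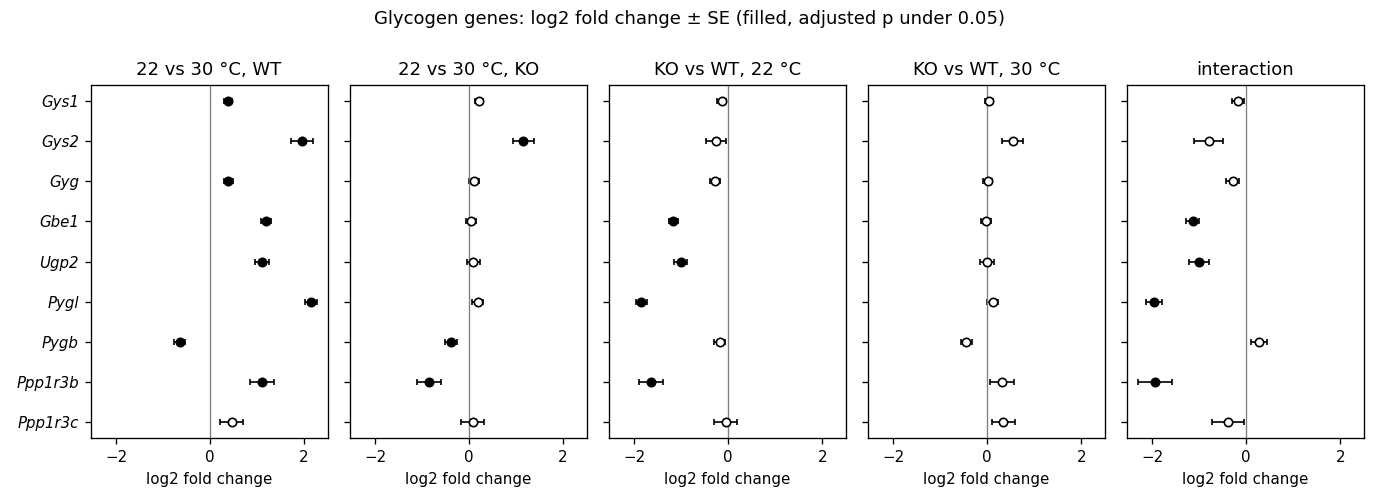
Log2 fold change ± SE of the 9 glycogen genes with cooling and between genotypes, with filled points for an adjusted p under 0.05. In WT 7 members lie above 0 and pass, in KO only Gys2 does, and at 30 °C no member passes between the genotypes.

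Levels can be set against each other per kilobase of exon. On that scale (CPM per kb, mean ± SD) Ppp1r3c at 68.0 ± 11.0 and Pygl at 51.9 ± 8.46 were the most abundant members in WT at 30 °C, and Gys2 at 10.6 ± 2.10 the least. Gys1 (46.8 ± 3.18), Gyg (46.3 ± 1.99), Ugp2 (43.1 ± 3.65), Pygb (40.7 ± 4.03), Ppp1r3b (39.4 ± 8.21) and Gbe1 (38.3 ± 5.70) lay between, with neighbours in this order inside each other's spread. In WT at 22 °C Pygl led at 230.0 ± 16.4 CPM per kb, and Pygb was lowest at 26.0 ± 3.97. KO at 22 °C was led by Ppp1r3c at 90.6 ± 1.20 and Pygl at 64.0 ± 7.88.

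Within a library the share of each paralog does not depend on library scaling. Gys2 made up 16.4, 17.0, 21.9 and 18.4% of the synthase transcripts per kb in WT at 30 °C and 47.3, 38.0, 34.9 and 38.9% at 22 °C. In KO it made up 31.4, 25.1, 21.1 and 19.6% at 30 °C and 37.0, 43.7, 40.0 and 31.9% at 22 °C. The share was higher in the cool in both genotypes, without overlap. The log2 ratio of Gys2 to Gys1 counts rose by 1.55 in WT and 0.96 in KO (2-sided exact permutation p = 0.0286 each, the smallest that 4 against 4 can give, adjusted p = 0.0381 over 8 tests). With 1 library left out the adjusted p stayed under 0.05 in 8 of 8 fits in WT but in 2 of 8 in KO. The KO call was lost (adjusted p = 0.0762) without any 1 library of cooled KO, or without replicate 3 or 4 of KO in the warm, with values from 0.835 to 1.09. KO against WT differed by -0.10 at 22 °C (exact p = 0.686) and by 0.49 at 30 °C (exact p = 0.0857).

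For phosphorylase, Pygl made up 55.8, 58.8, 57.9 and 50.8% of the Pygl and Pygb transcripts per kb in WT at 30 °C and 92.4, 89.6, 87.7 and 89.3% at 22 °C. The KO libraries held 68.5, 66.4, 65.0 and 60.8% at 30 °C and 71.9, 79.3, 72.0 and 70.6% at 22 °C. No pair of groups compared overlapped. The log2 ratio of Pygl to Pygb rose by 2.81 with cooling in WT and by 0.57 in KO. KO against WT gave -1.67 at 22 °C and 0.57 at 30 °C, so the sign of the genotype difference was opposite at the 2 temperatures. Each of these 4 differences had an exact permutation p of 0.0286, the smallest possible, and an adjusted p of 0.0381. With 1 library left out the adjusted p stayed under 0.05 in 8 of 8 fits for cooled WT, 6 of 8 for cooled KO, 7 of 8 for the genotypes at 22 °C and 3 of 8 at 30 °C, and reached 0.0762 at most. The cooled KO call was lost without replicate 2 at 22 °C (0.42) or replicate 4 in the warm (0.48), and the genotype call at 22 °C without KO replicate 2 (-1.83, adjusted p = 0.0571). The genotype call in the warm was lost without KO replicate 4 (0.66) or any 1 WT library (0.47 to 0.63). For the genotypes, the fits without KO replicate 2 at 22 °C and KO replicate 4 in the warm kept an exact p of 0.0286, the smallest possible. Both differences were larger than with all libraries, and both calls were lost through the adjustment alone. Groups that did not overlap still did not with a library left out. At 30 °C neither gene passed on its own.

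**Figure D3:**
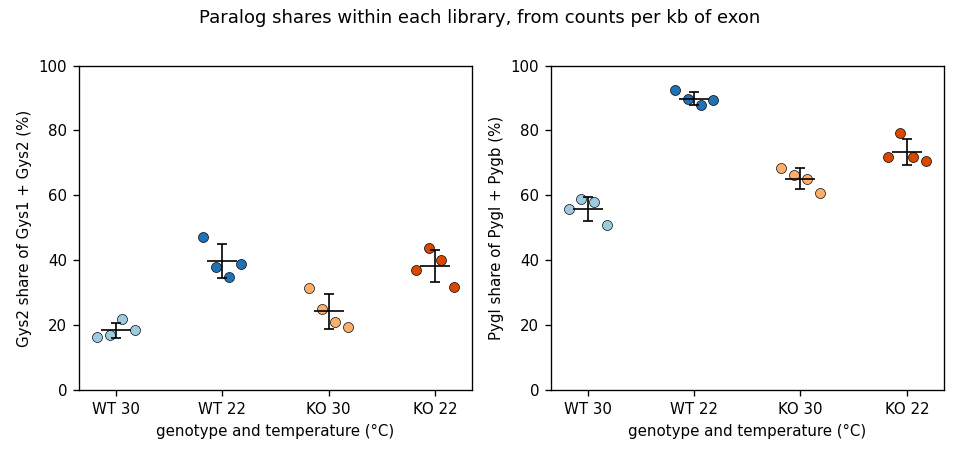
Share of Gys2 in the synthase transcripts and of Pygl in the Pygl and Pygb transcripts, in percent of counts per kb of exon, by group. Points are libraries and bars are mean ± SD (n = 4). Pygl is at 89.8% ± 1.93 in WT at 22 °C and 73.5% ± 3.97 in KO at 22 °C, and Gys2 at 39.8% ± 5.29 and 38.2% ± 4.98.

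Around these enzymes, 23 other glycogen genes were measured and all were tested. In WT 7 of 23 rose and 3 fell with cooling, beside 20.5% and 17.8% of all genes, so their count was close to the background. Their median log2 fold change was -0.18, beside -0.03 over all genes tested. The phosphoglucomutase Pgm1, which interconverts glucose phosphates, had the smallest p among those that rose. It was at 172, 196, 219 and 192 CPM in WT at 30 °C and 385, 472, 345 and 356 CPM at 22 °C. In KO it was at 224, 204, 194 and 200.4 CPM at 30 °C and 288, 245, 282 and 298 CPM at 22 °C. Both genotypes were higher in the cool without overlap, and WT at 22 °C stood above KO at 22 °C. Pgm1 gave 1.00 (SE 0.10, adjusted p = 4.73e-06) and 0.44 (SE 0.10, adjusted p = 0.00635) with cooling in WT and KO, and -0.56 (SE 0.15, adjusted p = 0.0487) for the interaction.

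Among the other 9 called in cooled WT, Ppp1ca, a catalytic subunit of protein phosphatase 1, rose by 0.62 (adjusted p = 7.01e-05), Gsk3a by 0.44 (adjusted p = 0.000213), and the phosphorylase kinase subunits Phkb and Phka2 by 0.50 (adjusted p = 0.00263) and 0.36 (adjusted p = 0.00354). Ppp1r3e, another targeting subunit, fell by 0.56 (adjusted p = 0.00255), and 4 further genes with larger p-values passed. In KO 5 of 23 rose and 1 fell, beside 13.8% and 13.0% of all genes, again close to the background. Gsk3a (0.36), Gaa, the lysosomal glucosidase (0.45), Pgm1, Ppp1ca (0.26) and Ppp1r3g rose, and Ppp1r3f fell by 0.54. Ppp1r3g had few counts, 1 to 5 counts in KO libraries at 30 °C and 20 to 112 at 22 °C, so its fold change is uncertain.

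Between the genotypes at 22 °C, 4 of the 23 were lower in KO and 2 higher, beside 10.1% and 7.52% of all genes, and at 30 °C 0 were called, beside 0.0425%. The lower genes were Pgm1, Ppp1ca and the phosphorylase kinase subunits Phka2 (-0.66, adjusted p = 0.000142) and Phkb (-0.53, adjusted p = 0.00562). Ppp1r3g and Gaa were the higher ones. Of the interactions 1 of 23 passed, that of Pgm1, with a negative value, beside 3.14% of all genes. The muscle phosphorylase Pygm passed in none of the 5 comparisons. It was at 343, 6.97, 7.54 and 40.8 CPM in KO at 22 °C and 65.6, 205, 14.7 and 9.80 CPM in KO at 30 °C, highest in each group in the library with most muscle markers.

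**Figure D4:**
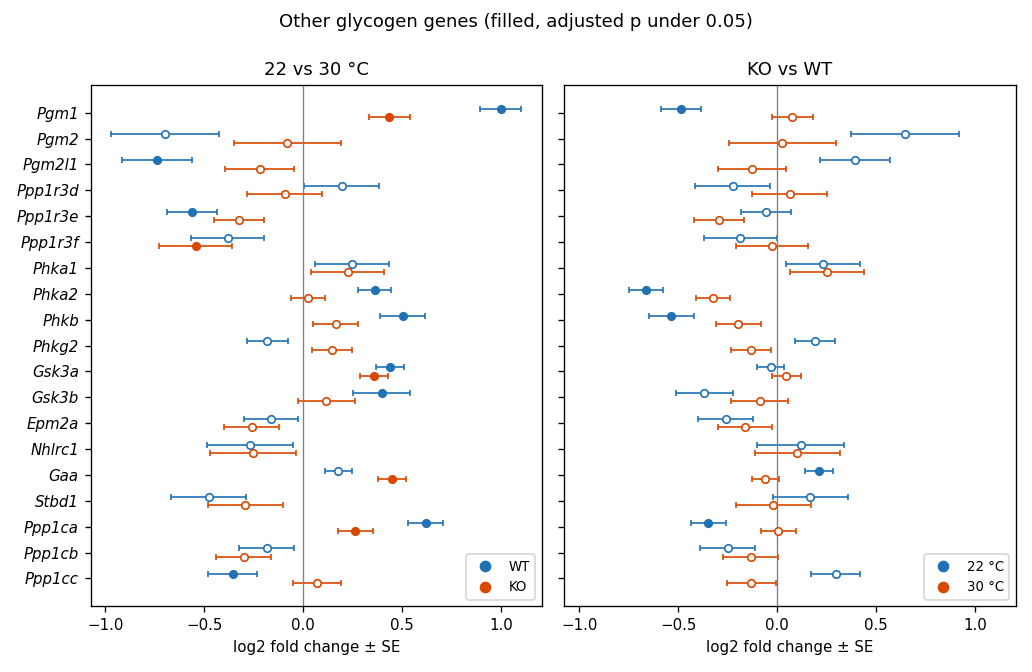
Log2 fold change ± SE of 19 other glycogen genes with cooling (left) and between genotypes (right), filled where the adjusted p was under 0.05. Ppp1r3a, Ppp1r3g, Pygm and Phkg1 are left out because their errors are large. Pgm1 lies near 1 in cooled WT and is lower in KO at 22 °C.

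The genes most alike in their pattern were found by the mean absolute distance between log2 CPM values, each gene centred on its own mean over the 16 libraries. Only tested genes outside the members with a mean log2 CPM of at least 2 and no predicted-gene or pseudogene name were compared. The libraries form 4 groups of 4, so a small distance mostly says that group levels match. Tkt, a pentose phosphate enzyme, was nearest to Pygl at 0.15, against a mean absolute deviation of 0.76 for Pygl itself, and Nsdhl, of cholesterol synthesis, followed at 0.15. Slc38a10 (0.11) and Pdk1 (0.12) were nearest to Gbe1. Slc38a10 was also close to Ugp2, at 0.14. The elongation enzymes Hsd17b12 (0.21) and Hacd2 (0.23) were nearest to Gys2. Tspan3 (0.04) and Nfs1 (0.05) were nearest to Gys1, and Trpc4ap (0.07) and Txnl1 (0.07) to Gyg. For Pygb they were Kdelc2 (0.11) and Ccdc77 (0.12), and for Ppp1r3b Ank (0.29) and Gpi1 (0.29). Among the members themselves the closest pair was Gbe1 and Ugp2, at 0.14.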

How the data were processed

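Per the labels' protocols, RNA was isolated from interscapular brown fat, treated to remove DNA and made into Illumina libraries. The authors deposited 1 table of raw read counts per Ensembl gene with 16 library columns. The submitters' processing notes name STAR 2.4.2a, FastQC 0.10.1 and edgeR 3.14.0, and the builds GRCm38 and mm10. Which program counted the reads, on which annotation and with which strand setting, is not given in the sources used here. Symbols matched 37607 of 38924 identifiers. Coordinates and exon lengths came from GENCODE M21 (GRCm38), and the promoters from RefSeq.

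Counts were fitted in R 4.3.3 with edgeR 4.0.16 (filterByExpr, minimum count 10, TMM factors, quasi-likelihood, 1 term per group, all 16 libraries), which tested 14103 genes. The SE of a log2 fold change is its size over the square root of F. CPM uses TMM-adjusted library sizes. Members had at least 369 counts in a library, so counting error was small beside the biological coefficient of variation (22.5%). Paralog ratios used log2 of counts plus 1 and exact permutation. The edgeR fit was tested on simulated counts.

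Alternatives were other factors, no or stricter filters, DESeq2 1.42.0, limma-voom (limma 3.58.1), fewer groups, a replicate block, 1 library left out, no muscle-bearing libraries and a clock covariate. The members, lists and alternatives were chosen with earlier results of these data known. All members were named, as were Pygm and up to 6 other called glycogen genes per comparison, by smallest p. Of the genes this rule names, 1 is not reported here.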

Additional observations from a re-analysis of the deposited data

Results flagged for a closer look

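A library stood apart from the other 3 of its group for 5 of 36 gene and group combinations, by Dixon's test, where chance alone gives about 1 in 20. Ugp2 at 193 CPM (192.8) was the highest of KO at 22 °C and Ppp1r3b at 87.5 CPM (87.52) the lowest of that group, both in replicate 1, which held the largest share of muscle markers (0.690%). Ppp1r3c at 428 CPM (428.2) was the highest of WT at 22 °C and Pygb at 97.0 CPM the lowest, both in replicate 1, the deepest library. Gys1 at 243 CPM (243.1) was the highest of KO at 30 °C. For all 5, what set the library apart was not tested.

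The response to temperature differed between the genotypes, by the interaction in edgeR's quasi-likelihood test, for Pygl (-1.96), Ppp1r3b (-1.95), Gbe1 (-1.14) and Ugp2 (-1.01).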

How the results depend on the processing

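Of 45 member results (9 genes in 5 comparisons), 35 were called or uncalled alike under every alternative. A call was lost in at least 1 alternative for 7 and gained in at least 1 for 3, and 0 turned sign as a called value. The 45 include results that were never called, so the 7 losses fall on the called results alone. In cooled WT 8 members passed under every alternative, and between genotypes at 30 °C 0 did. In cooled KO the count of 3 was 1 without the muscle-bearing libraries and 1 to 3 with 1 library left out (1 without KO replicate 1 at 30 °C), 4 with limma-voom, and 2 with the clock covariate, under which Gys1 and Gys2 rose and neither fall passed. KO against WT at 22 °C gave 4 members, 2 with the clock covariate and 4 to 5 with 1 library left out. The interaction gave 4, 1 with the clock covariate and 4 with any 1 library left out.

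The replicate numbers were not shown to pair the samples. Of 24 same-numbered pairs 13 had a correlation over 0.1 (range -0.491 to 0.517), and 6 of 16 libraries correlated best with their own number. No share for pairs with different numbers was set beside these, so a pairing was not excluded. With the replicate block the counts were 8, 2, 4, 0 and 4 members in the order cooled WT, cooled KO, KO against WT at 22 °C, at 30 °C and interaction. Only the fall of Ppp1r3b in KO was lost (-0.83, adjusted p = 0.0511), as it was with only the groups compared (adjusted p = 0.0585). The paralog ratios kept their direction except Gys2 to Gys1 between genotypes at 22 °C, which ran from -0.21 to 0.05. With 1 library left out Gys2 to Gys1 in cooled KO ran from 0.835 to 1.14 and lost its call without any 1 KO library of the 22 °C group or without replicate 3 or 4 of KO at 30 °C. Pygl to Pygb ran from 0.42 to 0.64 in cooled KO (lost without replicate 2 of cooled KO or replicate 4 of warm KO). Between genotypes that ratio ran from -1.83 to -1.52 at 22 °C (lost without KO replicate 2). At 30 °C it ran from 0.47 to 0.66 (lost without KO replicate 4 or any 1 WT library). The genotype losses without a KO library came through the adjustment alone, with the exact permutation p still the smallest possible.

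Over all genes the counts moved more. The interaction called 443 genes, 236 with no filter, 1070 with DESeq2, 1050 with limma-voom, 186 with the block, 147 to 1085 with 1 library left out, 23 with the clock covariate and 96 without muscle-bearing libraries. KO against WT at 22 °C called 2482, 634 with only the groups compared, 109 with the clock covariate and 1432 without muscle-bearing libraries. Cooled KO called 3772, 6067 with limma-voom, 2212 with the clock covariate and 2115 without muscle-bearing libraries. At 30 °C the genotypes differed in 6 genes, 19 with DESeq2, 44 with limma-voom, 2 without WT replicate 2 and 1 without muscle-bearing libraries. Upper-quartile factors moved the median of all genes in cooled WT from -0.03 to -0.13, and no called member changed sign under them. Small values of uncalled members did: Gyg (-1e-04), Gbe1 (-0.05), Ugp2 (-0.01) and Ppp1r3c (-0.02) in cooled KO, and Gyg (-0.0019) between genotypes at 30 °C. Depth was high for the members, so the spread among libraries of a group set the precision. The edgeR fit estimated that spread jointly over all 16 libraries.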

Other observations

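Within a group, single libraries led for many glycogen genes at once. The same ranks over all genes are not given, so whether this was particular to glycogen genes was not tested. Replicate 1 of WT at 22 °C was the highest of its group for 6 of 9 members (Gys2, Gbe1, Ugp2, Pygl, Ppp1r3b and Ppp1r3c) and the lowest for 2 (Gyg and Pygb). Replicate 1 of KO at 30 °C was highest for 5 (Gys2, Gbe1, Pygl, Ppp1r3b and Ppp1r3c), and replicate 4 of that group was lowest for 6. In WT at 30 °C replicate 1 was lowest for 6.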
